A study of Mus musculus with 44 samples.

Results

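The probes described here were found on nearly every control IgG pulldown and on a minority of the AUF1 pulldowns of the same cells. The set was chosen by detection p-values: a probe had to fall under 0.05 on 13 or more of the 15 IgG arrays and on no more than 6 of the 14 AUF1 arrays. The rule took 290 of the 25697 probes on the array (1.13%), or 3.44% of the 8419 probes that passed the IgG condition. Because detection on the IgG and AUF1 arrays chose the set, the difference between those pulldowns is given below as a description, without a test. A name such as lost with AUF1 goes further than the values: 289 of the 290 probes were detected on at least 1 AUF1 array and 130 of them on exactly 6.

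The RNA came from C2C12 cells, an established mouse myoblast line, either in growth medium (day 0) or after a switch to differentiation medium with horse serum. AUF1 pulldown, in which lysate was incubated with protein-A beads carrying an anti-AUF1 antibody, was measured on days 0 (4 arrays), 2 (3), 4 (3) and 6 (4). IgG pulldown, the same procedure with control IgG on the beads, was measured on days 0 (4 arrays), 2 (3), 4 (4) and 6 (4). Input RNA, taken without pulldown, was measured on days 0, 3 and 6 (5 arrays each), and its titles say DNA where its descriptions say RNA. On each of these days 2 of the 5 input arrays carry the same experiment number, while the titles number them as separate replicates, and they were counted as separate. No cells without AUF1 and no genetic change are named in the labels, and nothing in them says that replicates came from separate cultures, so the p-values below measure only the spread between these samples, which may be technical.

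AUF1, the product of Hnrnpd, is an RNA-binding protein that recognises AU-rich and related sequences in mRNA and takes part in controlling how fast those mRNAs decay and how well they are translated. In a pulldown of this kind an RNA can be recovered because it is bound to the protein that the antibody recognises, or because it sticks to the beads, the antibody or other material, and control IgG shows the second kind of recovery. An Illumina detection p-value compares a probe's brightness with that of control beads that match no transcript, so a dim probe can pass on one array and miss on another. The probe identifiers could not be paired with genes (0 of 25697 were found in the gene table at hand), and the probes are therefore described by identifier, brightness and behaviour, with no gene name or function. For the same reason the muscle identity of the cells could not be checked against marker genes.

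The arrays differed in the share of probes they detected, and this bears on every count that follows. AUF1 arrays detected 35.2 ± 6.74% of all probes (SD, n = 14), IgG arrays 41.6 ± 5.83% (n = 15) and input arrays 46.9 ± 1.17% (n = 15). Pulldown arrays with under 30% of probes detected are called dim arrays below. They were experiments 2 (day 0), 1 and 2 (day 2) and 3 (day 4) with AUF1, and experiment 2 (day 4) with IgG. When these were left out, 92 probes, all of them among the 290, were detected on at least 13 of the 14 remaining IgG arrays and at most 4 of the 10 remaining AUF1 arrays. Both limits are stricter as shares than the original ones. With at least 12 of the 14 IgG arrays, a slightly looser share, and the same AUF1 limit, the number was 216, of which 107 (49.5%) were among the 290; this setting was added after the data were seen. The size of the set thus depended on how the limits were rounded as well as on the dim arrays.

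AUF1 arrays that detected more probes in all mostly detected more of the 290 probes, and each had fewer of them than the IgG array of most similar overall share. In growing cells (day 0), experiments 1 to 4 of AUF1 detected 119, 25, 144 and 171 of the 290 probes, on arrays where 38.9%, 28.6%, 38.5% and 40.9% of all probes were detected. On day 2, experiments 1, 2 and 4 detected 10, 20 and 40 of them at overall shares of 29.2%, 24.4% and 35.5%. On day 4, experiments 1, 3 and 4 detected 21, 2 and 152 of them at 32.7%, 24.5% and 39.9%. The day 4 arrays thus ran from nearly none to over 150 of the probes, in the order of their detected shares. Their median signals over all probes did not follow that order, at 60.7, 54.3 and 51.2 for experiments 1, 3 and 4. On day 6, experiments 1 to 4 detected 264, 92, 94 and 256 of them at 45.5%, 36.3%, 33.3% and 44.4%. Experiments 1 and 4 of that day had the highest detected shares of all AUF1 arrays.

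Of the 15 IgG arrays, 12 detected 273 to 290 of the 290 probes, which the rule had required of most of them. The others were experiment 2 of day 4 with 49 of the probes at an overall share of 25.6%, experiment 2 of day 0 with 196 at 34.02%, and experiment 3 of day 6 with 204 at 35.7%. These IgG arrays had the lowest detected shares, and 421 (88.3%) of the 477 missed detections of the set with IgG fell on them. The IgG array with the lowest share thus missed 241 of the 290 probes.

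Setting each AUF1 array beside the IgG array of closest overall share, from any day, gave fewer of the 290 probes on the AUF1 array in 14 of 14 such pairs. These pairs drew on only 7 IgG arrays, some of them used repeatedly, so they are not separate comparisons. The largest gap in share was 3.61 percentage points. The AUF1 array at 40.9% had 171 of the probes, beside 281 on the IgG array at 41.5%. The AUF1 array at 35.5% had 40, beside 204 on the IgG array at 35.7%. At the highest shares the counts were closer, with 264 on the AUF1 array at 45.5% and 288 on the IgG array at 45.5%. At the lowest shares, the AUF1 arrays at 24.5% and 24.4% had 2 and 20 of the probes, and the IgG array at 25.6% had 49. A lower share of detected probes accompanied the low counts, and at like shares the counts with AUF1 were also below those with IgG. The rule chose the set by these same detections, so lower counts with AUF1 follow in large part from it. No test of that difference was made, and nothing is read from it.

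The rank of the probes within each array comes from the same signals as the detection calls that chose the set, so a lower rank with AUF1 than with IgG follows in part from the rule. On AUF1 arrays the median percentile of the 290 probes among all 25697 signals lay between 41.6 and 66.2, and on IgG arrays between 50.8 and 70.3. On input arrays it lay between 61.6 and 63.4. On day 2 alone it was 45.05, 49.5 and 52.8 with AUF1 and 70.3, 69.7 and 66.9 with IgG, without overlap. Over all days the AUF1 and IgG ranges overlap, and the input arrays sit within both. Without the IgG array of experiment 2 on day 4, the lowest IgG value was 63.6, and the AUF1 arrays above it were experiments 1 and 4 of day 6, at 66.2 and 64.4. All input arrays, at up to 63.4, were then below every IgG array. The other 8129 probes detected on at least 13 IgG arrays had median percentiles of 84.0 to 84.2 on AUF1 arrays, 83.9 to 84.2 on IgG arrays and 82.7 to 83.5 on input arrays, a spread of less than 1 percentile point within each kind.

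Levels are given from here on as log2 values after background correction and quantile normalisation over all 44 arrays. The 290 probes were dim with IgG already. Their mean IgG levels ran from 4.92 to 6.84 (median 5.48), against a median of 7.44 over the 8419 probes. With the 8419 probes cut into 10 classes of nearly equal size by mean IgG level, 187 of the set were in the dimmest class (22.2% of its probes), 75 in class 2 (8.91%), 23 in class 3 (2.73%) and 5 in class 4 (0.594%). None lay in the 6 brighter classes, above a level of 6.97. The other 655 of the 842 probes in the dimmest class were detected on more AUF1 arrays than the rule allows, with a median of 9.

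Mean AUF1 levels ran from 4.44 to 5.58 (median 4.97) and were above the mean IgG level for 8 of the 290 probes. Deposited signals averaged 56.8 to 176 intensity units on AUF1 arrays (median 65.8) and 71.9 to 315.9 units on IgG arrays (median 92.8). Among the set, probes in classes 2, 3 and 4 had larger AUF1 minus IgG differences (medians -0.77, -1.19 and -1.37 on the log2 scale, means of 4 days) than those in the dimmest class (-0.34); a bright probe needs a larger difference to miss the detection threshold, so this order follows from the rule. The other probes of the same 4 classes had medians of 0.12, -0.06, -0.07 and -0.05, counted from the dimmest.

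Most of the AUF1 detections of the set came from the first and last days. Of 1410 detections on AUF1 arrays, day 0 gave 459 (32.6%), day 2 gave 70 (4.96%), day 4 gave 175 (12.4%) and day 6 gave 706 (50.1%). As a share of all probe and array combinations of a day, that was 39.6%, 8.05%, 20.1% and 60.9% with AUF1, against 90.0%, 97.4%, 79.2% and 91.6% with IgG. On day 2, 225 of the 290 probes were detected on no AUF1 array, and on day 6 only 3 were. The AUF1 arrays of experiments 1 and 4 of day 6 both detected 234 of the probes (80.7%). Days 2 and 6 were also the days whose AUF1 arrays had, on average, the lowest (day 2) and highest (day 6) detected share of all probes. The part of this share in the day pattern was not tested.

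Few of the probes were missed with AUF1 throughout. On days 0, 2 and 4, 21 probes (7.24%) were detected on no AUF1 array, and 29 (10.0%) were detected on at least 1 AUF1 array of every day. Only 1 probe, ILMN_3049559, was detected on none of the 14 AUF1 arrays.

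The size of the AUF1 minus IgG difference followed the same course. The difference is of group means on the log2 scale, after normalisation of the 29 pulldown arrays together, over 13812 probes. Its median over the 290 probes was -0.42, -0.76, -0.55 and -0.27 on days 0, 2, 4 and 6, and -0.50 for the mean of the 4 days. Over all 13812 probes the medians were 0.0021, -0.065, -0.049, 0.0067 and -0.021. Of the 290 probes, 261, 273, 276 and 240 were below 0 on days 0, 2, 4 and 6, and 204 (70.3%) were below 0 on all 4 days, as were 23.8% of all probes. The rule fixed these counts in part. On day 2 the middle 50% of the set lay between -1.16 and -0.40, and on day 6 between -0.45 and -0.07; for the other 13522 probes these ranges were -0.42 to 0.34 and -0.13 to 0.15. Day 2 gave the lowest of the 4 differences for 166 probes, and day 6 gave the highest for 175.

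At least 2-fold lower levels with AUF1 were less common. On day 0, 49 of the 290 probes (16.9%) were at least 2-fold lower, where 2.82% of all probes were; this count and the next ones were fixed in part by the rule, and nothing is read from them. On day 2 the set had 94 (32.4%), with 8.22% of all probes, and on day 4 it had 46 (15.9%), with 5.05%. On day 6 it had 4 (1.38%), with 0.239% of all probes. For the mean of 4 days it had 38 (13.1%), with 2.32%. No probe of the set was at least 2-fold higher on any of these scales. The standard error of a single probe's difference on 1 day had medians of 0.32 to 0.37, which is larger than the median difference on day 6 and well below that on day 2.

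Quantile normalisation gives all arrays the same distribution. A scaling by the median of each array gives them only the same median over all probes on the array, and keeps differences in the rest of the distribution. Under that scaling the medians of the 290 probes on days 0, 2, 4 and 6 were -0.66, -0.80, -0.96 and -0.42, and those of all probes were -0.36, -0.85, -0.73 and -0.29. The median of the set was thus above that of all probes on day 2 and below it on the other days, so whether the set was lower than other probes on day 2 depended on the scaling. Without the pulldown arrays that detected under 30% of probes, the quantile-normalised medians of the set were -0.46, -0.88, -0.69 and -0.30. With AUF1 this left experiment 4 alone on day 2, and experiments 1 and 4 on day 4.

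Within each experiment number, the AUF1 array could be set beside the IgG array of the same day. The median over the 290 probes was below 0 in each of the 14 such pairs, from -1.25 (day 2, experiment 1) to -0.099 (day 6, experiment 4), and 183 to 272 of the 290 probes were below 0. The rule used detection on these same arrays, so the sign follows in large part from it. On day 6 the medians were -0.12, -0.68, -0.20 and -0.099 for experiments 1 to 4. In experiments 1 and 4 of day 6 the AUF1 array detected nearly as many probes in all as its IgG partner (differences in share of -0.288 and -0.848 percentage points), and in these pairs the differences of the set were among the smallest. Over the other 8129 probes the pair medians lay between -0.215 and 0.089.

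ILMN_3049559 had the most one-sided detection of the set. Its deposited signal on AUF1 arrays was 57.5, 51.3, 56.2 and 56.8 (day 0), 54.9, 57.4 and 52.2 (day 2), 52.5, 44.7 and 49.2 (day 4), and 79.8, 55.4, 66.8 and 60.5 (day 6), undetected throughout. On IgG arrays it was 177.0, 123.7, 121.2 and 77.6 (day 0), 187.9, 152.7 and 78.6 (day 2), 208.8, 53.9, 104.5 and 122.3 (day 4), and 114.2, 122.7, 78.5 and 68.0 (day 6). All IgG values were called detected except the 53.9 on an array of day 4. The AUF1 and IgG signals overlap through that array and through the AUF1 value of 79.8 on day 6. Its level averaged 4.44 ± 0.16 with AUF1 (SD, n = 14), 5.99 ± 0.89 with IgG and 4.59 ± 0.16 in input (n = 15 each), where 5 arrays detected it. Since no AUF1 array detected it, the AUF1 level is only a bound.

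ILMN_1240381 was detected on 1 AUF1 array, experiment 1 of day 6 at a signal of 80.7, and on 14 IgG arrays. Its level averaged 4.44 ± 0.15 with AUF1 (SD, n = 14), 6.09 ± 1.00 with IgG and 4.50 ± 0.12 in input (n = 15 each). ILMN_1249654 and ILMN_3075712 were likewise on 1 AUF1 array and 13 IgG arrays, at mean levels of 4.58 and 4.56 with AUF1, 5.90 and 5.89 with IgG and 4.35 and 4.35 in input. These last probes were detected on none of the 15 input arrays, so they were detected with IgG and not in the RNA without pulldown. The same held for ILMN_2965835, on 3 AUF1 and 13 IgG arrays, with mean levels of 4.75 with AUF1, 5.29 with IgG and 4.37 in input.

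ILMN_2680160 had the lowest AUF1 minus IgG difference of the set, -1.92 for the mean of 4 days. Its signals on AUF1 arrays ranged from 46.9 to 105.2, and on IgG arrays from 52.5 through a median of 158.3 to 533.1. The ranges overlap through 3 IgG arrays, experiment 2 of day 4 and experiment 3 of day 6, both undetected, and experiment 4 of day 6, detected at 84.6. By day its AUF1 levels averaged 4.95, 4.46, 4.56 and 4.99, and its IgG levels 7.11, 7.22, 6.60 and 6.15, on days 0, 2, 4 and 6. It was detected on all 15 input arrays, at a mean level of 6.06 ± 0.45 (SD, n = 15).

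ILMN_2678495 had the highest mean IgG level, 6.84 ± 1.04 (SD, n = 15), against 5.17 ± 0.55 with AUF1 (n = 14). Its input level was 5.19 ± 0.39 (n = 15), near its AUF1 level. Its signals ran from 55.0 to 124.6 with AUF1 (median 63.2), from 58.6 to 506.1 with IgG (median 162.8) and from 60.1 to 123.9 in input (median 75.3). It passed on exactly 6 AUF1 arrays.

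Other bright probes of the set were brighter in input than in either pulldown. ILMN_2688923 had mean levels of 5.37 ± 1.07 with AUF1 (SD, n = 14), 6.65 ± 1.32 with IgG and 9.98 ± 0.43 in input (n = 15 each). ILMN_3096701 had 5.44 ± 1.24, 6.68 ± 1.12 and 8.52 ± 0.81, in the same order, and ILMN_2707895 had 5.20 ± 0.78, 6.59 ± 1.10 and 7.69 ± 0.47. ILMN_2657734, at 4.99 ± 0.74, 6.49 ± 0.87 and 6.86 ± 0.38, was closest to its input level with IgG. ILMN_2589477 was bright in input, with signals of 371.6 to 1548.5 units, and dim in both pulldowns, at mean levels of 5.08 with AUF1 and 5.42 with IgG against 9.70 in input; its signals reached 91.0 with AUF1 and 197.1 with IgG. ILMN_2659151 had mean levels of 5.02 with AUF1, 5.81 with IgG and 8.57 in input.

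The boundary of the rule is not a gap in the data. The 130 probes detected on exactly 6 AUF1 arrays had a median AUF1 level of 5.09 and a median IgG level of 5.57, and the 182 probes detected on exactly 7, just outside, had 5.22 and 5.56. Just outside lay ILMN_2754285, on 7 AUF1 and 14 IgG arrays, with mean levels of 5.38 with AUF1 and 7.03 with IgG, and ILMN_1227839, on 7 AUF1 and 15 IgG arrays, with 5.25 and 6.77. On the IgG side, ILMN_1220181 and ILMN_1236246 were detected on 12 IgG arrays, with AUF1 levels of 4.75 and 5.19 and IgG levels of 6.24 and 6.22. These 4 were named as the probes with the highest IgG level on the far side of each limit, and they do not stand for all probes there.

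Input RNA was not used to choose the set. Its mean level over the 290 probes ran from 4.35 to 9.98 (median 5.06), and 15 of them were above 7.34, the median input level of the 8419 probes. All 15 input arrays detected 128 of them (44.1%), 149 were detected on 3 to 14 input arrays, 13 on at most 2 and 6 (2.07%) on none. Of the other 8129 probes recovered with IgG, 90.2% were on all 15 input arrays and 4 (0.0492%) on none. The gap was narrower in the dimmest class of IgG level, where 75 of 187 probes of the set (40.1%) and 408 of 655 others (62.3%) were on all 15 input arrays. Split by input detection, the set had median AUF1 minus IgG differences of -0.50, -0.48 and -0.53 for probes on 0 to 2, 3 to 14 and all 15 input arrays.

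On day 0, against input of the same day, the median of the set lay slightly below the input level with AUF1 and above it with IgG, while single probes varied in order. The median level difference from input was -0.12 with AUF1 and 0.31 with IgG, and it was 0.20 with either for the other 8129 probes. AUF1 was below input for 176 probes (60.7%), against 41.5% of the others, and IgG was above input for 195 (67.2%), against 58.9%. Input lay between a lower AUF1 level and a higher IgG level for 88 probes (30.3%), against 8.30% of the others. With AUF1 again lower than IgG, input lay below both for 94 (32.4%), against 21.1%, and above both for 81 (27.9%), against 18.3%. The rule chose probes detected with IgG and mostly not with AUF1. The gaps from the other probes here and on day 6 thus follow in part from the rule, and nothing is read from them. On day 6 the medians were 0.083 with AUF1 and 0.37 with IgG, and 42 probes (14.5%) had input between them, against 3.67% of the others. The other 8129 probes had day 6 medians of 0.31 with AUF1 and 0.29 with IgG, so the median of the set was below theirs with AUF1 and above it with IgG. Pulldown arrays carry the numbers 1 to 32 and input arrays 33 to 47, so pulldown and a series of arrays cannot be told apart in these comparisons.

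The input arrays allow a test of change during differentiation, by limma on the 15 input arrays with adjustment over 13750 probes, of which 277 were of the set (13 were detected on too few input arrays). In such bulk RNA, fewer cells of a type and less RNA per cell cannot be told apart. Between day 3 and day 0, 87 of the 277 changed (31.4%), where 37.4% of all tested probes did. Of these, 39 were higher on day 3 (17.2% of all probes were) and 48 lower (20.3% of all). Between day 6 and day 0, 100 changed (36.1%), where 42.4% of all did, 43 higher on day 6 (19.5% of all) and 57 lower (23% of all). Both shares lay somewhat below the background of all probes. With input arrays of the same number averaged, 63 changed on day 3 and 84 on day 6. Between days 6 and 3, 0 of the 277 passed (14 had an unadjusted p under 0.05), where 0.451% of all probes did, 0.422% higher on day 6 and 0.0291% lower. The same direction held in both comparisons with day 0 for 31 probes that were higher and 46 that were lower, and for none did it turn.

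ILMN_2886610 had the highest day 6 minus day 0 change in input of the 277 probes and was undetected on all 5 input arrays of day 0 and detected on all of days 3 and 6. Its input levels were 4.40, 4.33, 4.52, 4.41 and 4.57 on day 0, 7.95, 7.88, 7.15, 6.92 and 7.18 on day 3, and 8.10, 7.76, 8.16, 7.66 and 7.70 on day 6, without overlap between day 0 and the later days. Day 0 gave only a bound, which holds only on the background-corrected scale of the input arrays normalised alone. On that scale ILMN_2886610 was at least 11.1-fold higher on day 6 (limma, adjusted p = 1.35e-10). On day 3 it was at least 8.15-fold higher (limma, adjusted p = 9.18e-10). Without background correction its log2 change on day 6 against day 0 was 2.22 (limma, adjusted p = 2.4e-08), below the 3.71 with correction. In the pulldowns it was detected with AUF1 on 0 of 4 arrays of day 0, 0 of 3 of day 2, 2 of 3 of day 4 and 4 of 4 of day 6, and with IgG on 2 of 4, 3 of 3, 4 of 4 and 4 of 4. Its day 6 levels with AUF1 (6.11, 5.55, 6.74 and 6.46) overlapped those with IgG (6.11, 6.65, 6.59 and 6.07).

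ILMN_2510383 was likewise higher in input on day 6 than on day 0, by 2.51 ± 0.33 on the log2 scale (SE, limma, adjusted p = 1.01e-05). It was detected with AUF1 on 2 of the 3 arrays of day 4 and all 4 of day 6, and on none of days 0 and 2. ILMN_2473718 was higher by 1.74 ± 0.22 (limma, adjusted p = 7.4e-06) and ILMN_2987862 by 1.57 ± 0.16 (limma, adjusted p = 4.56e-07). ILMN_2987862 was detected with AUF1 on 3 of 4 arrays of day 6 and on none of days 0, 2 and 4, whereas ILMN_2473718 was on 2 of 4 arrays of day 0 and 2 of 4 of day 6. The AUF1 arrays of day 6 also had the highest detected share on average, and the part of this share in these detections was not tested.

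Of those that fell, ILMN_2909597 was detected on all 5 input arrays of day 0, at levels of 5.98, 5.81, 5.88, 6.40 and 5.63, and on none of days 3 and 6, at levels between 4.26 and 4.50. On the scale of the 15 input arrays normalised alone, it was at least 2.97-fold lower on day 6 (limma, adjusted p = 9.86e-09). Without background correction its log2 change was -0.90 (limma, adjusted p = 4.34e-07). With IgG it was detected on 14 of 15 arrays over all days, where the rule had required at least 13. On day 6 it was detected on all 4 IgG arrays and on no input array, and day 3 had no IgG arrays. With AUF1 it was detected on 4 arrays, 1 each on days 0 and 4 and 2 on day 6. ILMN_2534259 fell by 1.94 ± 0.15 on the log2 scale (SE, limma, adjusted p = 2.46e-08) and ILMN_2935838 fell by 1.90 ± 0.15 (limma, adjusted p = 2.65e-08).

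Of the brightest probes with IgG, ILMN_3096701 fell by 1.54 ± 0.22 in input (log2, SE, limma, adjusted p = 2.46e-05) and ILMN_2657734 fell by 0.64 ± 0.15 (limma, adjusted p = 0.00235) on day 6 against day 0. ILMN_2707895 was higher by 0.82 ± 0.18 (limma, adjusted p = 0.00112), a call that is lost with median scaling (adjusted p = 0.0837). ILMN_2589477 was higher by 0.47 ± 0.17 (limma, adjusted p = 0.0389), but the call was lost under 10 of 19 alternatives (limma, adjusted p from 0.0207 to 0.435). Without day 0 input array 45 its change was 0.27 (limma, adjusted p = 0.0701). ILMN_2678495, ILMN_2680160, ILMN_2688923, ILMN_2659151 and ILMN_3049559 did not pass. Without day 0 input array 45, ILMN_2680160 had a change of -0.57 (limma, adjusted p = 0.0327) and ILMN_2688923 one of -0.61 (limma, adjusted p = 0.0341), so both passed; ILMN_2688923 also passed without day 0 array 39 (limma, adjusted p = 0.0416) and with array weights (limma, adjusted p = 0.00149).

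The pulldown levels of the set moved with input in part. For the 43 probes higher in input on day 6, the median day 6 minus day 0 change was 0.69 in input, 0.51 with AUF1 and 0.32 with IgG, and the AUF1 change was above 0 for 37 and the IgG change for 33. For the 57 lower in input, it was -0.76 in input, -0.02 with AUF1 and -0.24 with IgG, with the AUF1 change below 0 for 30 and the IgG change for 38. For the 177 not called in input, it was 0.013 in input, 0.115 with AUF1 and -0.097 with IgG. Of these, the AUF1 change was above 0 for 114 and the IgG change for 71, so AUF1 levels mostly rose without a called input change as well. Across the 277 probes, Pearson's r between the input change and the pulldown change was 0.351 with AUF1 and 0.444 with IgG, and across 12511 probes it was 0.408 and 0.537; these are correlations across probes measured on the same arrays and are given as descriptions. The median AUF1 minus IgG difference over the 4 days was -0.52 in the probes higher in input, -0.50 in those lower and -0.49 in those not called.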

How the data were processed

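RNA of AUF1 pulldowns, IgG pulldowns and input of C2C12 cells was measured on 44 Illumina bead arrays. Per the file headers, the deposited table holds for each of 25697 probes a signal intensity that was not normalised and a detection p-value. GenomeStudio 1.6.0 was used per the submitters' processing notes. A background subtraction before deposit is neither stated nor excluded by them, and the lowest signal was 32.4. Columns were assigned to groups through their names, which give antibody, day, experiment number and array number. No 2 arrays held identical signals.

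The members of the set and the gene lists were chosen with earlier results of these data known. All signals went through neqc of limma 3.58.1 (R 4.3.3): normal-exponential background correction with control moments inferred from the detection p-values, an offset of 16, quantile normalisation and log2. This was done for the 29 pulldown arrays, for the 15 input arrays and, for levels, for all 44. A fit took the probes that 3 or more of its arrays detected at p under 0.05 (13812 pulldown, 13750 input). Input days were compared with lmFit and eBayes, a mean per day and no covariate, with Benjamini-Hochberg adjustment over all tested probes and a threshold of 0.05; the procedure was tested on simulated data. The AUF1 minus IgG difference carries no test. Where a day detected a probe on no array, its level there was set per array to the lowest level of any detected probe, or its own if higher, and the fold is given as a bound. Such a bound holds only on the background-corrected scale of the 15 input arrays. The number of arrays limits the precision.

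Named probes were the 6 with the highest IgG level, the 4 on the fewest AUF1 arrays, the 4 highest and 4 lowest called input changes of day 6 against day 0, the 3 brightest and 3 dimmest in input, and 2 on each side of each threshold. The planned gene lists were not used, for lack of gene names. Alternatives were another background correction, other scalings, other filters, moderation and array weights, fewer arrays, other array counts in the rule, each array left out, input arrays of the same number averaged and the experiment number as a block. Same-numbered AUF1 and IgG arrays deviated together with correlations of 0.26 to 0.771 (day 0), 0.114 to 0.484 (day 2), -0.0939 to 0.718 (day 4) and 0.162 to 0.837 (day 6). Input arrays of the same number did not do so throughout (-0.32 to 0.506 over the pairs of days) and were not treated as pairs. Summaries were made with Python 3.11.15 and pandas 2.3.3.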

Additional observations from a re-analysis of the deposited data

Results flagged for a closer look

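In groups of 4 or 5 arrays, 15 of the 184 values tested (8.15%) had 1 array far from the others, where chance alone flags about 1 in 20 groups. Of these, 4 concern the set as a whole. IgG experiment 2 of day 4 detected 49 of the 290 probes and had their lowest median percentile of that group, 50.85. IgG experiment 3 of day 6 detected 204 of them, and 1 input array of day 0, number 45, detected 207.

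The other 11 concern single named probes, as log2 levels. AUF1 experiment 3 of day 0 was the highest of its group for ILMN_3049559 (4.52), ILMN_2909597 (5.16) and ILMN_2965835 (5.01). IgG experiment 3 of day 6 was the lowest for ILMN_2688923 (4.33) and the highest for ILMN_2909597 (5.50). Input array 45 of day 0 was the highest for ILMN_2510383 (6.38) and the lowest for ILMN_2589477 (8.56). On day 6 with AUF1, ILMN_2678495 was highest in experiment 1 (5.82), ILMN_2707895 lowest in experiment 3 (5.01) and ILMN_2987862 lowest in experiment 2 (4.74). IgG experiment 2 of day 4 was the lowest for ILMN_2473718 (4.60). Without input array 45, the counts of the set that changed in input were 85 on day 3 and 108 on day 6 against day 0.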

How the results depend on the processing

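The counts of the set that changed in input stayed within 1.5 times of those given under every one of the 19 alternatives of each comparison: 63 to 103 for day 3 against day 0, 78 to 122 for day 6 against day 0, and 0 throughout for day 6 against day 3. Leaving out 1 input array gave 67 to 85, 88 to 108 and 0, and averaging input arrays that share an experiment number, a setting added after the data were seen, gave 63, 84 and 0. With experiment as a replicate block the counts were 86, 97 and 0, and the medians of AUF1 minus IgG were -0.42, -0.76, -0.69, -0.27 and, for the mean of 4 days, -0.53; the block changed no day 6 against day 0 call of a named probe. Those medians kept their sign under every alternative, and moved without background correction to -0.17 (day 0), -0.32 (day 2), -0.22 (day 4), -0.11 (day 6) and -0.20 (mean of 4 days), with median scaling to -0.66 (day 0), -0.96 (day 4) and -0.72 (mean), and on day 2 to -0.56 with scaling by mean and SD and to -0.88 without the dim pulldown arrays. With AUF1, the day 2 value without the dim arrays rests on experiment 4 alone. Leaving out 1 array gave -0.47 to -0.38 (day 0), -0.86 to -0.70 (day 2), -0.70 to -0.48 (day 4), -0.35 to -0.20 (day 6) and -0.54 to -0.46 (mean). The set itself depended most on its rule: 7 probes with all 15 IgG arrays required, 844 with at least 12 IgG and at most 7 AUF1 arrays, 92 or 216 without the dim arrays (at least 13 or 12 of 14 IgG arrays), and 245 at a detection p under 0.01, of which 63 (25.7%) are among the 290. Of the named probes, 2 uncalled input changes of day 6 against day 0 turned: ILMN_2659151 was -0.24 with array weights and -0.12 to 0.42 with 1 array left out, and ILMN_3049559 was -0.051 to 0.090 with 1 array left out. The causes were not tested.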
